A study of Mus musculus with 12 samples.

Results

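The Ifi200 family of the mouse, also called the PYHIN or AIM2-like receptor family, was followed through abdominal fat of diabetic mice given adenoviruses that carried short hairpin RNAs (shRNAs). The genes described are Ifi203, Ifi204, Ifi205, Ifi207, Ifi209, Ifi213, Mndal and Aim2. They were selected by symbol: a gene counted as a member where its symbol was on this list and a probe set of the deposited expression table carried that symbol. All 8 were found, each with 1 probe set, among 23185 genes measured. The 8 names had been chosen with their levels against the control virus already known, so those differences are given as descriptions and without a test. Comparisons between the groups that received a hairpin against a gene did not enter that choice and were tested.

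Members of this family join, in most cases, an amino-terminal pyrin domain, which binds other pyrin domains, to a carboxy-terminal HIN domain, which binds double-stranded DNA. Aim2 is the best known: after binding DNA in the cytosol it recruits the adaptor Pycard (ASC) and caspase-1, and this inflammasome matures interleukin-1β and interleukin-18 and can end in pyroptosis. Ifi204 is the member most often set beside human IFI16 and acts upstream of the adaptor Sting1 in the interferon response to cytosolic DNA. Most family genes are themselves induced by interferons and are well expressed in macrophages, a cell type abundant in the fat of obese mice.

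The mice were BKS.Cg-Dock7m +/+ Leprdb/J animals, a strain carrying a leptin receptor mutation, 12 weeks old. Groups of 7 received adenovirus, abdominal fat was taken 1 week later, and 3 animals per group, described by the submitters as representative and so not a random draw, were arrayed. The control group received 4e9 plaque-forming units (pfu) of a virus with a control shRNA. In the LCN13 group 2e9 pfu carried an shRNA against Lcn13, a secreted lipocalin, and 2e9 pfu were control virus. In the TSC22D4 group 2e9 pfu carried an shRNA against the transcriptional regulator Tsc22d4, again with 2e9 pfu of control virus. The TSC22D4+LCN13 group received 2e9 pfu of each targeting virus and no control virus. The dose of control virus therefore differed between the control group and every other group, and its part and that of each hairpin cannot be told apart. Every animal received virus, so no group shows fat without adenovirus, and the labels do not say which cells of the fat, if any, the virus reached.

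The unit throughout is the log2 probe set intensity after RMA, on which a difference of 1 is a doubling. The lowest value of the table was 5.62 and its median 6.31, and arrays of 1 group correlated at 0.994 to 0.998 across genes. The adipocyte genes Adipoq (12.20 to 12.45) and Plin1 were high on all 12 arrays. The targeted genes were not measurably lower in this tissue: Tsc22d4 lay between 7.56 and 7.88 on every array, with a difference from control of -0.0074 in the TSC22D4 group (limma adjusted p = 0.989) and -0.07 in the TSC22D4+LCN13 group (adjusted p = 0.888). Obp2a, under which the annotation lists Lcn13, lay between 5.71 and 5.79, near the bottom of the table, and differed from control by -0.01 in the LCN13 group (adjusted p = 0.858). The group names are therefore names of the virus given, not of a measured loss in fat.

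All 8 members had a lower mean in each of the groups given a targeting virus than in the control group. The difference was unequal among them. It ran from -3.40 to -2.61 for Ifi213 and Ifi209, from -1.53 to -1.10 for Ifi204 and Ifi203, from -0.77 to -0.58 for Mndal and Ifi207, and from -0.36 to -0.07 for Aim2 and Ifi205. For 6 of the 8 the arrays of each targeting group lay wholly below those of control, and for Aim2 and Ifi205 they overlapped in all 3 comparisons. Groups that do not overlap in this direction were found for 6.93% of all genes in the LCN13 group, 8.38% in the TSC22D4 group and 7.22% in the TSC22D4+LCN13 group. Since the members were chosen on this contrast, nothing is read from their count. Probes of similar family members can share signal, because these genes arose by duplication and their transcripts are alike in long stretches, so 8 probe sets are not 8 independent readings. In tissue RNA, fewer cells that express a gene and less of its RNA in each cell cannot be told apart.

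**Figure D1:**
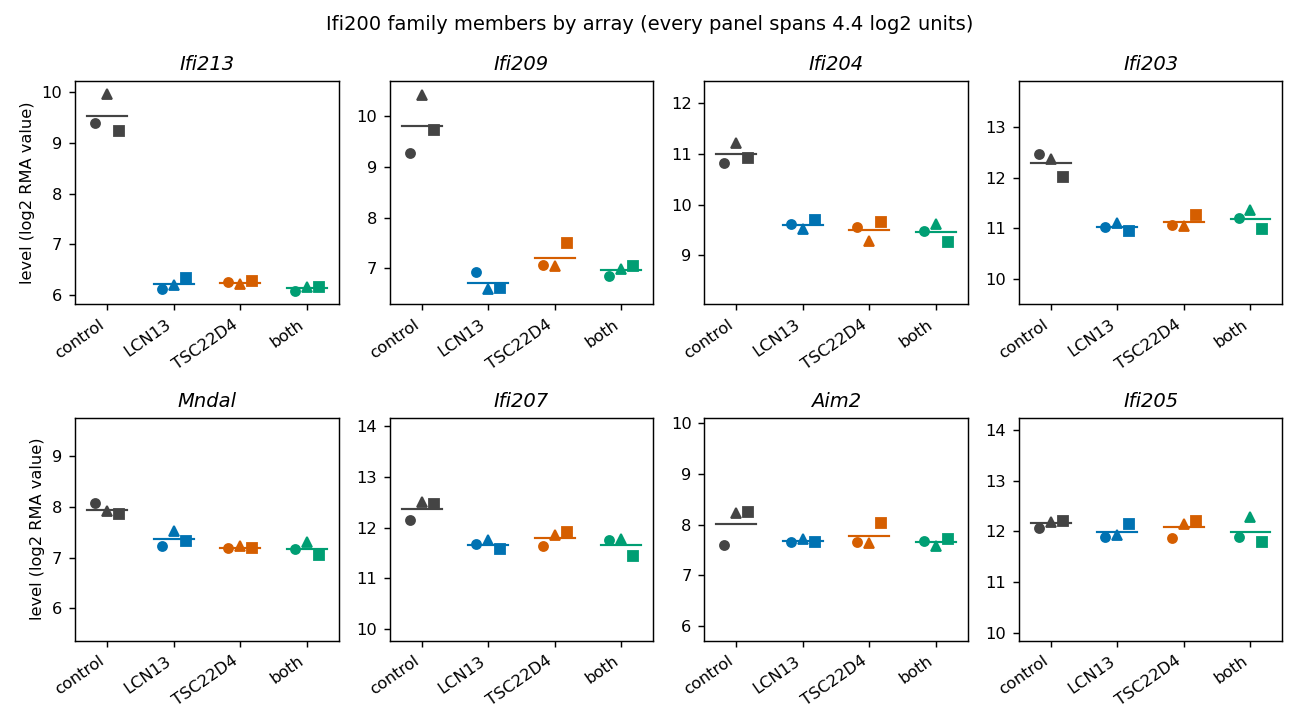
Log2 RMA intensity of each member on all 12 arrays, 1 panel per gene and each panel spanning the same number of log2 units. Points are arrays, their shapes the order in which a group's replicates are listed, and lines are group means. Ifi213 and Ifi209 show the widest step between control and the other groups, and the arrays of Aim2 and Ifi205 overlap.

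Among the DNA sensors proper, Aim2 differed little. Its level was 7.59, 8.23 and 8.24 in control replicates 1, 2 and 3. It was 7.66, 7.71 and 7.65 in the LCN13 group, 7.65, 7.63 and 8.03 in the TSC22D4 group, and 7.68, 7.58 and 7.71 in the TSC22D4+LCN13 group. Control replicate 1 lay inside the range of the other groups, and 1 of the 9 arrays with a targeting virus lay below all controls. The differences from control were -0.35, -0.25 and -0.36 in the LCN13, TSC22D4 and TSC22D4+LCN13 groups, each with a standard error (SE) of 0.166 for 3 arrays against 3. Without control replicate 1 they became -0.56, -0.46 and -0.58.

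Ifi204, the sensor upstream of Sting1, stood clear of control on every array. It was at 10.83, 11.21 and 10.93 in the control group and at 9.61, 9.52 and 9.69 in the LCN13 group. In the TSC22D4 group it was at 9.56, 9.28 and 9.66, and in the TSC22D4+LCN13 group at 9.48, 9.62 and 9.27. The lowest control array was 1.14 above the highest of the other 9. The differences were -1.38, -1.49 and -1.53 (SE 0.129), so that the control level was 2.60, 2.81 and 2.89 times that of the groups in turn.

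Ifi207 and Ifi205 are full-length family members, of which Ifi207 has been linked to the stability of Sting1 and Ifi205 to the level of Pycard mRNA in macrophages. Ifi207 was at 12.16, 12.50 and 12.46 in control, at 11.67, 11.76 and 11.57 with LCN13 shRNA, at 11.63, 11.85 and 11.91 with TSC22D4 shRNA and at 11.75, 11.77 and 11.44 with both. All 9 lower arrays lay below the controls, though by a gap of 0.25 at the closest point, and the differences were -0.70, -0.58 and -0.72 (SE 0.119). Ifi205 was at 12.07, 12.19 and 12.20 in control, at 11.89, 11.92 and 12.15 with LCN13 shRNA, at 11.87, 12.15 and 12.21 with TSC22D4 shRNA and at 11.88, 12.29 and 11.79 with both. Its differences of -0.16, -0.07 and -0.16 (SE 0.136) were of the size of the spread inside the targeting groups, where the standard deviation (SD) was 0.145, 0.182 and 0.266 (n = 3 each). Without TSC22D4 replicate 10 the difference in that group turned to 0.03. Of the 9 arrays, 5 lay below all controls, and the highest of all 12 was TSC22D4+LCN13 replicate 14. Ifi205 is therefore the member with the smallest difference from control in all 3 groups, although its probe set ranked at the 98th percentile of mean level, far above the foot of the table.

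Ifi203 and Mndal encode nuclear proteins of the family and are closely related. Their names are also entangled, since RefSeq lists Mndal both as a gene and as a synonym of Ifi203. Ifi203 was at 12.47, 12.36 and 12.02 in control, at 11.03, 11.11 and 10.94 in the LCN13 group, at 11.07, 11.04 and 11.26 in the TSC22D4 group and at 11.20, 11.35 and 10.99 in the TSC22D4+LCN13 group. The differences were -1.26, -1.16 and -1.10 (SE 0.126), with a clear gap of 0.67 between the nearest arrays. Mndal was at 8.07, 7.92 and 7.85 in control, at 7.22, 7.53 and 7.32 with LCN13 shRNA, at 7.18, 7.23 and 7.18 with TSC22D4 shRNA and at 7.17, 7.31 and 7.05 with both. Its differences were -0.59, -0.75 and -0.77 (SE 0.0895). Replicate 1 was the highest and replicate 3 the lowest control array for both genes.

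Ifi213 and Ifi209 had the widest steps. Ifi213, whose RefSeq synonym Pydc4 places it among the pyrin domain proteins without a HIN domain, was at 9.39, 9.97 and 9.24 in control. It was at 6.11, 6.20 and 6.33 with LCN13 shRNA, at 6.25, 6.21 and 6.27 with TSC22D4 shRNA and at 6.08, 6.15 and 6.16 with both. All 9 arrays lay within 0.25 of each other and at least 2.9 below the lowest control. The differences were -3.32, -3.29 and -3.40 (SE 0.155), control being 10.0, 9.80 and 10.6 times the other groups. The 9 lower values lay close to the median of the whole table, toward the dim end where differences between RMA values are compressed.

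Ifi209, listed by RefSeq also as Pyhin1, was at 9.28, 10.41 and 9.73 in control, the widest control range of the 8 (1.13). It was at 6.92, 6.58 and 6.60 with LCN13 shRNA, at 7.07, 7.05 and 7.49 with TSC22D4 shRNA and at 6.85, 6.99 and 7.04 with both. Despite that range the lowest control was 1.79 above the highest other array, TSC22D4 replicate 12. The differences were -3.11, -2.61 and -2.85 (SE 0.248), and control was 8.62, 6.09 and 7.22 times the other groups. Control replicate 2 was the highest array for Ifi204, Ifi207, Ifi209 and Ifi213. Without it the 3 differences of Ifi213 were -3.10, -3.07 and -3.18.

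**Figure D2:**
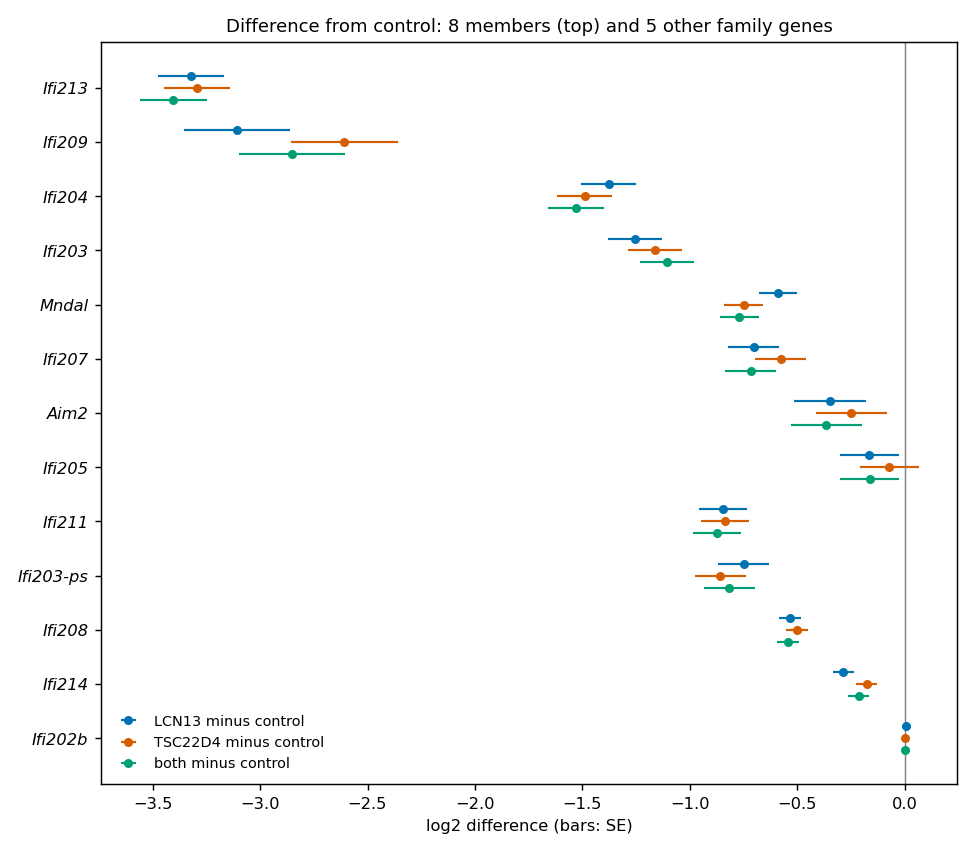
Log2 difference from the control group for the 8 members (upper rows) and 5 other family genes (lower rows), in 3 colours for the groups given LCN13, TSC22D4 or both shRNAs, with bars of 1 SE. The points of a gene lie close together while genes differ, from near 0 for Ifi205 and Ifi202b to about -3.3 for Ifi213.

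The median member difference was -0.98, -0.96 and -0.94 in the LCN13, TSC22D4 and TSC22D4+LCN13 groups, against 0.004, -0.0022 and 0.0015 for all 23185 genes. These comparisons share their control arrays, so a control animal that was high in a gene is high in all of them. The mean of the members, each centred on its own average over the 12 arrays, ran from 0.84 to 1.21 in control, from -0.38 to -0.35 in the LCN13 group, from -0.35 to -0.14 in the TSC22D4 group and from -0.46 to -0.26 in the TSC22D4+LCN13 group.

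Whether the members differed among the groups given a targeting virus was tested. None did at an adjusted p under 0.05. The TSC22D4 and LCN13 groups received the same 2e9 pfu of control virus, and the TSC22D4+LCN13 group received none. Comparisons with the TSC22D4+LCN13 group therefore differ in control virus as well as in targeting virus, and these cannot be told apart. The 8 members in 3 comparisons gave 24 tests by limma's moderated test, fitted to all 12 arrays with Benjamini-Hochberg adjustment over 23185 genes. Of these 0 passed, and 0 had an unadjusted p under 0.05, the smallest being 0.0731. Among all genes, 0.574% were lower and 0.457% higher in the TSC22D4 group than in the LCN13 group. For TSC22D4+LCN13 against LCN13, 0.00431% passed in each direction, and against TSC22D4 the share was 0%.

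Groups whose arrays did not overlap were also counted in these comparisons, and nothing is read from their number. All TSC22D4+LCN13 arrays lay below all TSC22D4 arrays for 2 members, Ifi209 and Ifi213, a pattern shown by 6.76% of all genes. No member had its TSC22D4+LCN13 arrays, or its TSC22D4 arrays, wholly below those of LCN13, against 9.22% and 15% of all genes.

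The largest of these differences belonged to Ifi209. It was 0.50 higher in the TSC22D4 group than in the LCN13 group, with a 95% confidence interval of -0.06 to 1.06 and an adjusted p of 0.334 (0.172 to 0.62 over 17 other settings). All 3 TSC22D4 arrays of Ifi209 lay above all 3 LCN13 arrays, as they did for 10.1% of all genes. Mndal came next to it in unadjusted p: it was 0.18 lower with both shRNAs than with LCN13 shRNA (interval -0.38 to 0.02, adjusted p = 0.505). For Ifi213, the member with the widest step from control, the difference between the TSC22D4 and LCN13 groups was 0.03 (interval -0.32 to 0.38, adjusted p = 0.951). Aim2 differed by 0.10 in the same comparison (interval -0.27 to 0.47, adjusted p = 0.805). The intervals for Ifi204 reached from -0.44 to 0.25 over the 3 comparisons. With 3 arrays a group, the 21 tests other than those of Ifi209 left room for differences of up to 0.49, or 1.4-fold, and those of Ifi209 for up to 1.06, or 2.08-fold. Within those limits the order of the 3 targeting groups was not resolved for any member.

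**Figure D3:**
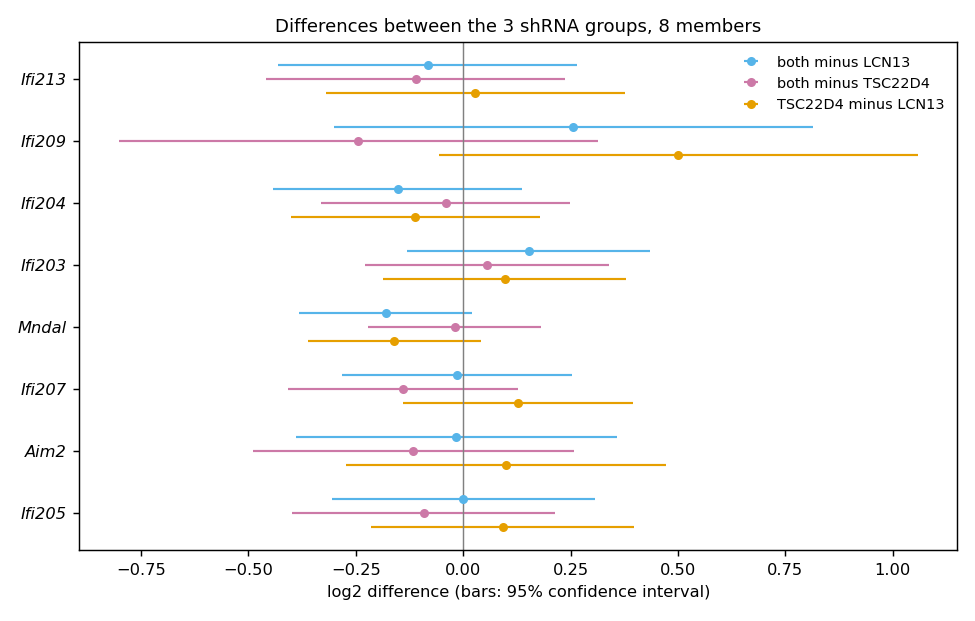
Log2 differences between the groups given targeting shRNAs, for the 8 members and 3 comparisons, with bars showing 95% confidence intervals of the limma fit. Every interval includes 0, and the interval of Ifi209 is the widest, reaching 1.06.

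The variation among members apart from control was small and weakly shared. Over the 9 arrays with a targeting virus, which share a normalisation and fall in 3 groups, the correlation of 28 member pairs had a median of 0.27 and ran from -0.63 (Ifi209 with Mndal) to 0.65 (Ifi203 with Ifi207). The closely related Ifi203 and Mndal reached 0.10. Ifi213 and Ifi209, the members with the widest steps from control, reached 0.03. A correlation over all 12 arrays is dominated by the step between control and the other groups.

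All family genes lie in 1 cluster on chromosome 1. In RefSeq's order Aim2 comes first, followed by Ifi206, Ifi214, Ifi213, Ifi209, Ifi208, Ifi207, Ifi204, Ifi203-ps, Mndal, Ifi211, Ifi203, Ifi202b and Ifi205. These are 14 of the 19 genes in the span. Among the 8 members, those with the smallest differences, Aim2 and Ifi205, sit at its outer ends, and those with the widest, Ifi213 and Ifi209, are neighbours. This order describes the members only. Ifi214 and Ifi208, which flank Ifi213 and Ifi209, differed by -0.29 and -0.54 in the LCN13 group, though at levels near the bottom of the scale. Because all members had lower means than control, the DNA before their listed transcription starts was searched for the core of the interferon-stimulated response element, GAAANNGAAA, on both strands. The sequences, all from RefSeq on build GRCm38.p6, were the 250 bases before each start. The motif was found in 2.98% of 32851 such windows and at 3.4% of 17452 genes that are on the array. It was found at 5 of the 7 members with a window (Ifi203, Ifi205, Ifi207, Ifi213 and Mndal). Ifi204 had no entry.

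The matches are shown with 10 bases on each side, on the strand of the gene and with the motif in capitals, because their letters are almost the same from gene to gene.
Ifi213, chr1:173599326-173599355 (-), 73 to 64 bases before the start: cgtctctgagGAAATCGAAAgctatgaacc
Ifi203, chr1:173942508-173942537 (-), 35 to 26 bases before 1 of its listed starts: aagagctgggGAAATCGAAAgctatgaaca
Mndal, chr1:173880204-173880233 (-), 36 to 27 bases before the start: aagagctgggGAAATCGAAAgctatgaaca
Ifi207, chr1:173741831-173741860 (-), 41 to 32 bases before the start: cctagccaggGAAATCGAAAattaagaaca
Ifi205, chr1:174031870-174031899 (-), 134 to 125 bases before the start: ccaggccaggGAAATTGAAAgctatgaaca
The windows of Ifi203 and Mndal were identical over all 30 bases. The motif of Ifi205 differed from the other 4 inside its variable gap and lay farthest from its start. Mndal had a further match on the opposite strand, before another listed start.

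Both members without a match came within 1 base of it, as did 31.4% of all windows and 32.5% of the genes on the array, so such a near match is common. Ifi209, which had the second widest step from control, held the same block with its first letter changed, substitution G1T counted from 1 at the motif's first base, 79 bases before its start. That is 1 of 4 positions with a single mismatch in the window of Ifi209, shown because its surroundings are those of the family matches. Aim2 had substitution T8G in the motif as read on the opposite strand. Changed motifs are in capitals.
Ifi209, chr1:173630770-173630799 (+): aatctctgagTAAATCGAAAgagatgcact
Aim2, chr1:173420543-173420572 (+): tgtaactctgTTTCTTTGTCtgagcaagaa
Of the 4 other family genes with a window, 3 held an exact match, Ifi208, Ifi211 and Ifi214, against 3.4% of genes on the array. The 30 bases around the match of Ifi208 were the same as those of Ifi213. Ifi214 holds the unchanged block in nearly the same surroundings as Ifi209.
Ifi214, chr1:173536017-173536046 (-): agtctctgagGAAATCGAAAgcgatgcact
Whether the presence of the letters goes with the size of the difference was not tested, and members were found both ways. Ifi205 had the match and the smallest difference, and Ifi213 had the match and the widest (-3.32 in the LCN13 group). Ifi209 lacked an exact match and differed by about 3 log2 units, and Aim2 lacked it and differed by -0.35 in the LCN13 group. A match is a description of letters, and these arrays do not show which of them is bound. The core of the gamma-activated site, TTCNNNGAA, was found in 7.02% of windows and at 0 of the 7 members.

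The full 250 bases before the start are given for Ifi209, a member with a wide step and no exact match, and Ifi205, the member with the smallest difference, with exact matches of the interferon-stimulated core in capitals.
Ifi209, chr1:173630609-173630858 (+): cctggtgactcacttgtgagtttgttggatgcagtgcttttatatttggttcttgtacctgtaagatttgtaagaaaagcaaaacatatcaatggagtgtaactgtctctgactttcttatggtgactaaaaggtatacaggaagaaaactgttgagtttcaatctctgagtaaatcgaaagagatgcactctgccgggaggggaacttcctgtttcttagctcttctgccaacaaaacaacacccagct
Ifi205, chr1:174031756-174032005 (-): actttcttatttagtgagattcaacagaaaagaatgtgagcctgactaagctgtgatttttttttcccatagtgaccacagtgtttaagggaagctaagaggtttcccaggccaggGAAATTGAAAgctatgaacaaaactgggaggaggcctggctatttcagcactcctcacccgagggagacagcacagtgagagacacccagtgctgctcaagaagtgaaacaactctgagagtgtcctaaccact
Across 76 pairs of family windows the identity of these upstream bases had a median of 46.8% and ran from 39.6% to 94.4%. The closest pairs were Ifi209 with Ifi214 (94.4%), Ifi203 with Mndal (89.3%), Ifi208 with Ifi213 (87.9%) and Ifi207 with Ifi211 (85.0%). Alike pairs did not always have alike differences from control. In the LCN13 group Ifi207 differed by -0.70 and Ifi211 by -0.84, and Ifi203 by -1.26 and Mndal by -0.59. In the same group Ifi209 differed by -3.11 and Ifi214 by -0.29, while Ifi213 differed by -3.32 and Ifi208 by -0.54. Ifi214 and Ifi208 lay between 5.68 and 6.40 on every array, near the bottom of the scale, where differences are compressed.

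The rest of the family was tested against control, as those genes were not members, although the list was drawn up with results of these data known. Of 5 further family genes measured, 4 fell in the LCN13 group and 3 in each of the other groups, and 0 rose. Across all genes 1.04%, 0.88% and 1.03% fell in the LCN13, TSC22D4 and TSC22D4+LCN13 groups, and 0.397%, 0.293% and 0.315% rose. Their median difference was -0.54, -0.50 and -0.55.

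RefSeq lists Ifi211 also as Mnda and Ifi205b, and Ifi205 also as Ifi205a, so the names of these genes overlap. Ifi211 was at 12.49, 12.73 and 12.51 in control and between 11.54 and 11.88 on the other 9 arrays. It fell by 0.84, 0.84 and 0.88 in the LCN13, TSC22D4 and TSC22D4+LCN13 groups (limma adjusted p = 0.00543, 0.00655 and 0.00451). The pseudogene Ifi203-ps was at 10.72, 10.41 and 10.14 in control and between 9.49 and 9.71 elsewhere, and fell by 0.75, 0.86 and 0.82 (adjusted p = 0.015, 0.00789 and 0.00975). Its control arrays had the order of those of Ifi203 and Mndal, replicate 1 highest and replicate 3 lowest. Irf9, outside the family, had the same order. Over the 9 arrays with a targeting virus Ifi203-ps correlated at 0.19 with Ifi203 and at 0.6 with Mndal. Its signal may be shared with theirs, which was not tested. Ifi208, a pyrin domain gene that shares the RefSeq synonym E430029J22Rik with Ifi213, was at 6.36, 6.40 and 6.16 in control and between 5.75 and 5.83 elsewhere. It fell by 0.54, 0.50 and 0.55 (adjusted p = 0.000625, 0.00106 and 0.000526).

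Ifi214 fell by 0.29 in the LCN13 group (adjusted p = 0.0217). In the TSC22D4 and TSC22D4+LCN13 groups its differences were -0.18 and -0.21 (adjusted p = 0.153 and 0.0815). Ifi202b, which lacks a pyrin domain and can restrain Aim2, lay between 5.67 and 5.71 on all 12 arrays, at the foot of the table, where a lower level could not have been seen. Ifi206 was not analysed here. These calls leaned on the spread pooled over all 4 groups. Fitted with the 2 groups of each comparison alone, Ifi208 (adjusted p = 0.0613, 0.0629 and 0.0542) and Ifi203-ps (0.167, 0.11 and 0.162) passed in none, Ifi214 (0.121) did not pass in the LCN13 group, and Ifi211 passed in the TSC22D4 group (0.0703 and 0.0525 in the others). Without control replicate 2, LCN13 replicate 5 or LCN13 replicate 6, the LCN13 calls of Ifi203-ps (adjusted p up to 0.0655) and Ifi214 (up to 0.089) were lost, that of Ifi214 also without control replicate 3.

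The partners of Aim2 in the inflammasome showed little. Of 15 inflammasome and pyroptosis genes, 0 passed in the LCN13 group, 1 fell and 1 rose in the TSC22D4 group, and 1 fell in the TSC22D4+LCN13 group. At an unadjusted p under 0.05 there were 5, 4 and 4 in the LCN13, TSC22D4 and TSC22D4+LCN13 groups. The share of all genes at that threshold is not given here, so nothing is read from such counts for this or the later lists. The median difference was -0.058, -0.0149 and -0.0632. Casp4, the caspase that senses cytosolic lipopolysaccharide, was at 8.89, 8.84 and 8.96 in control and between 8.25 and 8.62 elsewhere. It fell by 0.41 in the TSC22D4 group (adjusted p = 0.0474) and by 0.53 in the TSC22D4+LCN13 group (adjusted p = 0.012), and its difference of -0.37 in the LCN13 group did not pass (adjusted p = 0.067). Gsdme, a pore-forming gasdermin cut by caspase-3, rose by 0.53 in the TSC22D4 group (adjusted p = 0.0421). Both calls in the TSC22D4 group were lost in 9 of 12 fits that each left out an array, with adjusted p up to 0.15. The call of Casp4 was lost without any 1 of the control or LCN13 arrays, TSC22D4 replicate 10 or 11, or TSC22D4+LCN13 replicate 14. The call of Gsdme was lost without any 1 of the control or TSC22D4 arrays, LCN13 replicate 5, or TSC22D4+LCN13 replicate 13 or 14. In the TSC22D4+LCN13 group Casp4 did not pass without replicate 13 or 14 of that group (adjusted p up to 0.0547).

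Casp1, the caspase that Aim2 activates, had differences of -0.39, -0.10 and -0.21 (adjusted p = 0.398, 0.896 and 0.805), with overlapping arrays. Il18, a substrate of caspase-1, was at 6.74, 6.97 and 6.92 in control and between 6.39 and 6.77 elsewhere, and its differences of -0.35, -0.37 and -0.32 did not pass (adjusted p = 0.141, 0.127 and 0.198). Pycard, the adaptor, and Il1b, the other cytokine, were singled out after their values were seen. Pycard lay between 8.08 and 8.35 on all arrays, and Il1b between 5.86 and 6.02, near the foot of the table.

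Among genes of other cytosolic DNA sensing routes, Irf7 and Zbp1, which interferon itself induces, fell most. Of 17 such genes, 5 fell and 1 rose in the LCN13 group, 4 fell in the TSC22D4 group and 6 fell in the TSC22D4+LCN13 group, with median differences of -0.22, -0.08 and -0.20. Irf7, the factor that amplifies type I interferon, was at 12.33, 12.69 and 12.55 in control. It was at 10.28, 10.08 and 9.93 with LCN13 shRNA, at 10.08, 9.73 and 9.95 with TSC22D4 shRNA and at 9.43, 9.25 and 9.15 with both. It fell by 2.43, 2.60 and 3.25 (adjusted p = 1.8e-05, 8.75e-06 and 1.94e-06), steps of a size with those of Ifi209. Zbp1, a sensor of Z-form nucleic acid, was at 10.12, 10.56 and 10.26 in control and between 7.40 and 8.32 elsewhere. Its differences of -2.26, -2.26 and -2.73 passed (adjusted p = 6.98e-05, 5.89e-05 and 1.29e-05).

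Tlr9, the endosomal DNA receptor, fell by 1.04 in the LCN13 group (adjusted p = 0.0275) and by 1.27 in the TSC22D4+LCN13 group (adjusted p = 0.0104). Its difference of -0.92 in the TSC22D4 group did not pass (adjusted p = 0.0581). The LCN13 call was lost without control replicate 2 or 3, any 1 of the LCN13 arrays, or TSC22D4 replicate 10 (adjusted p up to 0.0948), and the TSC22D4+LCN13 call without replicate 13 of that group (adjusted p = 0.0584). Sting1, on which Ifi204 acts, had differences of -0.22, -0.30 and -0.54, of which none passed (adjusted p = 0.468, 0.327 and 0.0613). Trex1 and Samhd1, which remove DNA and nucleotides, fell in all 3 groups, Trim56 fell in the TSC22D4+LCN13 group (adjusted p = 0.0374) and Irf3 rose by 0.28 in the LCN13 group (adjusted p = 0.00917). The call of Trex1 in the TSC22D4 group was lost without control replicate 2 or any 1 of that group's arrays (adjusted p up to 0.0972). The call of Samhd1 in the TSC22D4+LCN13 group was lost without control replicate 2 or that group's replicate 13 or 16 (adjusted p up to 0.10). The call of Trim56 was lost in 9 of 12 fits, which left out any 1 of the control or TSC22D4 arrays, LCN13 replicate 5, or TSC22D4+LCN13 replicate 14 or 16. Trex1, Samhd1, Trim56, Irf3 and Cgas are named after their values were seen. Cgas lay between 5.90 and 6.18 on all arrays and did not pass in any group.

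The factors that bind the searched motif were also measured. Of 11 genes of this list, which holds interferon-responsive transcription factors and their receptors and regulators, 2 fell in each group and 0 rose, with median differences of -0.14, -0.19 and -0.20. Stat2 and Irf9, which act at the interferon-stimulated response element, were the 2. Stat2 was at 10.98, 11.21 and 10.80 in control and between 9.05 and 9.49 elsewhere, and fell by 1.64, 1.63 and 1.84 (adjusted p = 5.17e-05, 4.77e-05 and 1.56e-05). Irf9 was at 9.76, 9.71 and 9.58 in control and between 8.53 and 9.12 elsewhere, and fell by 0.62, 0.84 and 1.05 (adjusted p = 0.000534, 6.52e-05 and 1.17e-05). Irf5 and Irf1 did not pass in any group.

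Genes that flank the cluster but do not belong to the family were read on the same arrays. Of 13, 0 passed in the LCN13 group and 1, Slamf9, a receptor of myeloid cells, fell in each of the others. At an unadjusted p under 0.05 there were 2, 3 and 3 in the LCN13, TSC22D4 and TSC22D4+LCN13 groups. Slamf9 was at 10.81, 11.38 and 11.53 in control and between 9.90 and 10.55 elsewhere, with differences of -0.96, -1.02 and -1.06 (adjusted p = 0.0557, 0.0473 and 0.0353). Each call was lost in 9 of 12 fits, without control replicate 2 or 3, LCN13 replicate 5, or any 1 of the TSC22D4 and TSC22D4+LCN13 arrays. Slamf8, Ackr1 and Vsig8 did not pass in any group. Between the targeting groups, 1 gene of these 5 lists passed, Irf3, which was lower in the TSC22D4 group than in the LCN13 group (adjusted p = 0.0356). Without LCN13 replicate 5 or 6, or any 1 of the TSC22D4 arrays, it did not pass (adjusted p up to 0.111).

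**Figure D4:**
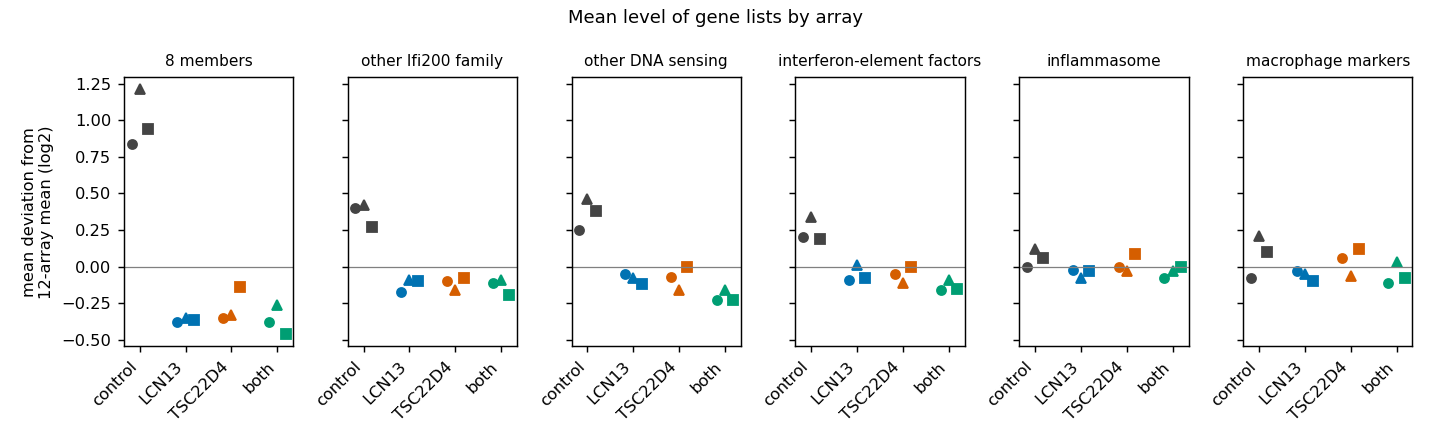
Mean deviation of each gene list from its own mean over the 12 arrays, in log2 units, 1 panel per list and 1 point per array, in groups of 3. The members lie between 0.84 and 1.21 in control and below -0.1 elsewhere, and the other family, DNA sensing and interferon-element lists show smaller steps. The macrophage list overlaps between groups. The inflammasome list overlaps between control (0 to 0.12) and TSC22D4 (-0.03 to 0.09). Its LCN13 arrays (-0.08 to -0.02) lie narrowly below control, and its TSC22D4+LCN13 arrays (-0.08 to 0) reach the lowest control value.

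Markers of macrophages, the cells in fat that express much of this family, had mostly lower means than control, and none passed. Of 11 macrophage markers, 10, 9 and 10 were below control in the LCN13, TSC22D4 and TSC22D4+LCN13 groups, with median differences of -0.11, -0.05 and -0.14, and 0 passed in any comparison with control. At an unadjusted p under 0.05 there were 1, 1 and 2 in the LCN13, TSC22D4 and TSC22D4+LCN13 groups. Their mean deviation ran from -0.08 to 0.21 in control, from -0.10 to -0.03 in the LCN13 group, from -0.06 to 0.12 in the TSC22D4 group and from -0.11 to 0.03 in the TSC22D4+LCN13 group, and the groups overlapped. The control replicate 2, highest for 4 members, was also the highest array of this list, and the part of macrophage content in the members' values was not tested. The largest differences were those of Cd14 (-0.39, -0.26 and -0.48) and Cd163 (-0.22, 0.29 and 0.12). Of 7 dendritic cell markers, Cd209a rose by 0.64, 1.02 and 0.75 (adjusted p = 0.0353, 0.00288 and 0.0157), opposite in sign to the members. The LCN13 call held in 5 of 16 other settings, and the TSC22D4+LCN13 call was lost without control replicate 3 or that group's replicate 14 or 16 (adjusted p up to 0.0636). None of the adipocyte, T and NK cell, B and plasma cell, neutrophil, endothelial, fibroblast or mesothelial markers passed against control, though some shifts were large. In the TSC22D4 group the plasma cell gene Jchain was 1.47 above control (adjusted p = 0.226), with replicates 10 and 12 at 8.95 and 8.62 and replicate 11 at 6.87. The neutrophil gene S100a8 was 1.23 above control in that group (adjusted p = 0.264), with all 3 arrays above all controls. These are single genes of their lists: the median difference there was 0.14 for the B and plasma cell markers and 0.02 for the 7 neutrophil markers. In the LCN13 group all 7 mesothelial markers had means above control, with a median of 0.47. Gpm6a was 0.93 above control (adjusted p = 0.381) and Upk1b 0.66 (adjusted p = 0.55). The mean deviation of this list was 0.67 and 0.68 in LCN13 replicates 5 and 6. In replicate 8 it was -0.37, inside the control range of -0.41 to 0.18. In the LCN13 group the NK cell receptor Ncr1 differed by -0.51 (adjusted p = 0.13) and the neutrophil receptor Csf3r by -0.47 (adjusted p = 0.0598). The medians of the T and NK cell and the neutrophil markers in that group were -0.04 and -0.06. In the TSC22D4+LCN13 group the fibroblast gene Lum was 0.53 above control (adjusted p = 0.0546), where the median of the fibroblast markers was 0.16. The endothelial gene Cldn5 differed by -0.58 in the TSC22D4 group and by -0.49 in the TSC22D4+LCN13 group, with arrays that overlapped control. The median of the endothelial markers was -0.07 in each. The part of these cell types in the members' values was not tested.

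The genes most like the members were ranked by Pearson correlation with the mean of the 8 centred members. The members were not scaled, so over the 12 arrays that mean rests mostly on Ifi213 and Ifi209, which had the widest steps, and little on Aim2 and Ifi205. Over the 12 arrays the 5 highest were Oas1g (0.996), Oas3 (0.993), Ddx60 (0.992), Ascc3 (0.992) and Oasl1 (0.991). Oas1g, Oas3, Ddx60 and Oasl1 are interferon-induced antiviral genes, and Ascc3 encodes a helicase. Their differences from control in the LCN13 group were -3.73, -3.50, -1.78, -0.54 and -2.20 in that order. Over the 9 arrays without control the 5 highest were different genes: Stard8 (0.971), 1700041C23Rik (0.959), Olfr1193 (0.956), Nuak2 (0.948) and Mir3070b (0.948). None of those 5 differed from control by more than 0.13 in any group. Of them, 1700041C23Rik, Olfr1193 and Mir3070b had mean levels of 5.71, 5.77 and 5.87, near the foot of the table. Both lists are the top of 23185 genes over few arrays and carry no test.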

How the data were processed

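Abdominal fat RNA was labelled as biotinylated cDNA by the Affymetrix protocol, per the labels' protocols, and the deposited values are log2 intensities that the authors made by RMA, per the submitters' processing notes. For RMA's version, settings and probe set definition the sources used here give nothing. Sorted values of any pair of arrays differed by at most 0.00188, so a shift of all genes together would have been removed. The table held 25206 probe sets, of which 23185 had 1 gene symbol and were tested and 2021 had none. The number of arrays, 3 a group, limits the precision.

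The members and all gene lists were chosen with earlier results of these data known. Against control the members were described only. Elsewhere linear models with 1 mean per group and no covariate were fitted (R 4.3.3, limma 3.58.1, eBayes, two-sided, 8 residual degrees of freedom), with Benjamini-Hochberg adjustment over 23185 genes and a threshold of 0.05; the procedure was tested on simulated data with known changes. The rule for names took every member, and up to 4 genes per pathway list and 2 per marker list by largest absolute difference from control. It also took the 5 genes most correlated with the members over 12 or 9 arrays. Not every marker gene that the rule named is printed, and Adipoq and Plin1 were added to check the tissue. Motifs and identities were computed in Python 3.11.15 with Biopython 1.88 from RefSeq promoter windows. Group differences were recomputed with trended and robust variance, array weights, 9 reference genes for scaling, probe sets above the median level, the 2 groups alone and each array left out.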

Additional observations from a re-analysis of the deposited data

How the results depend on the processing

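Against control the median member difference stayed between -1.05 and -0.858 in every setting run, and no member was called between the targeting groups in any. Without control replicate 2 the differences of Ifi213 were -3.10, -3.07 and -3.18 in the LCN13, TSC22D4 and TSC22D4+LCN13 groups, and with array weights -3.57 and -3.61 in the LCN13 and TSC22D4+LCN13 groups. Calls over the 5 pathway lists against control numbered 12, 12 and 13, and with the 2 groups alone 4, 8 and 4, where the spread comes from fewer arrays. With 1 array left out they ranged from 9 to 13, 8 to 14 and 9 to 15. For TSC22D4+LCN13 against LCN13 the count was 0, and 1 with trended and robust variance, with array weights or above the median level, and 0 to 3 with 1 array left out. For TSC22D4 against LCN13 it was 1, and 0 with trended and robust variance, 3 with array weights, 2 above the median level, 0 with the 2 groups alone and 0 to 3 with 1 array left out. The cause was not tested. Among differences too small to be called, scaling to reference genes turned the sign of Ifi207 (0.00879) and Aim2 (0.00684) for TSC22D4+LCN13 against LCN13 and of Mndal (0.0137) for TSC22D4+LCN13 against TSC22D4. Leaving out 1 array turned signs as well. For TSC22D4+LCN13 against LCN13, Ifi205 ranged from -0.151 to 0.097, Ifi207 from -0.0739 to 0.0911 and Aim2 from -0.0431 to 0.0243. Against TSC22D4, Ifi203 ranged from -0.0286 to 0.151, Ifi204 from -0.152 to 0.0527, Ifi205 from -0.243 to 0.00456, Mndal from -0.084 to 0.0439 and Aim2 from -0.186 to 0.0127. For TSC22D4 against LCN13, Ifi213 ranged from -0.0241 to 0.0887 and Aim2 from -0.029 to 0.169. No paired analysis was possible because the groups share no replicate numbers.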
